A study of Mus musculus with 9 samples.

Results

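The array held 649 probes whose names begin with mouselincRNA, of 60915 probes that were not controls. They were chosen by that name alone, with no measured value used. Long intergenic non-coding RNAs (lincRNAs) are transcripts made between protein-coding genes and not translated into protein. They are usually less abundant and more restricted to single tissues or stages than messenger RNAs, and some of them help to set chromatin state or the activity of other genes. In liver, many long non-coding RNAs change between the fetal organ, which also makes blood cells, and the adult organ, and transcripts that are shared by fetal tissue and tumour are called oncofetal.

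RNA came from 3 groups of mouse liver tissue with 3 samples each. The fetal livers were taken from embryos of 17.5 days, whose sex the labels do not give, and the adult livers from males of 2 months. The tumours came from livers of males of 1 year that had been given diethylnitrosamine (DEN), a carcinogen that the liver activates, and their cell morphology had been checked after haematoxylin-eosin staining. The sources used here name neither the strain nor the dose or schedule of DEN. Tumour tissue, DEN and an age of 1 year came together, so they cannot be told apart in any comparison with the tumours. The study looked for transcripts shared by fetal liver and liver cancer. The replicates of a group are called independent, but no animal or litter is named, so the p-values reflect only how much these samples spread. In bulk tissue, fewer cells of a type and less RNA per cell cannot be told apart.

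Each RNA was labelled with Cy3 and read on 1 single-colour Agilent array. A level here is the log2 processed signal of a probe minus the 75th percentile of its array, so a level of 0 is the brightness of that percentile. Fetal samples 1 to 3, adult samples 1 to 3 and cancer sample 1 carried 1 scan time in the file headers, and cancer samples 2 and 3 another. Between 41.0% and 54.9% of all probes were well above background on an array of the first scan, and between 68.0% and 69.4% on the 2 arrays of the second. The lowest level that counted as well above background lay between -3.27 and -2.09 in the first scan and between -4.26 and -3.96 in the second. Each comparison with the tumours is accordingly repeated on the arrays of the first scan, which leave cancer sample 1 alone, assumed to vary like the other groups. Markers of hepatocytes, blood precursors, immune cells and stroma were not analysed here, since nothing used here pairs probes with those genes.

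Each member is a single spot. A name holds a number from 2 to 1671, a plus or minus sign and an ending that all members share, as in mouselincRNA1468-_P1. The 649 names cover 332 numbers, of which 317 have both a plus and a minus probe and 15 have a single one, with 322 plus and 327 minus probes in all. The meaning of the numbers is not stated in those sources, and the sign is used here only to pair names of 1 number. Sequences, genome positions and gene names of these probes were not used here, so the probes are identified by name.

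Most of these probes gave little signal in any of the tissues. Of the 649, 305 (47.0%) were well above background on 0 of 9 arrays, 169 on 1 or 2 arrays, 81 on 3 to 8 arrays and 94 on all 9. The 3 fetal arrays detected 18.98%, 25.9% and 20.1% of the members, and the 3 adult arrays 18.9%, 20.6% and 20.2%. The 3 cancer arrays detected 20.4%, 47.8% and 42.8%. The tumour array of the first scan thus lay within the range of the other tissues, and both arrays of the second scan lay above all others.

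The group means were 21.6% ± 3.71 for fetal liver, 19.9% ± 0.930 for adult liver and 37.0% ± 14.6 for cancer (SD, n = 3 each). Cancer exceeded adult liver by 17.1 percentage points (two-sided exact permutation test, p = 0.2, adjusted p = 0.3 over 3 comparisons) and fetal liver by 15.4 points (exact permutation p = 0.2, adjusted p = 0.3). Fetal and adult liver differed by 1.75 points (exact permutation p = 0.7). With 3 arrays against 3 the smallest p possible is 0.1, so this design cannot pass 0.05. Within the first scan the difference was 0.474 points between cancer and adult liver and -1.27 points between cancer and fetal liver. Of the 649 members, 150 were well above background only on cancer sample 2 or 3, and 91 of these on both.

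Detection of the members was compared on each array with that of the other probes. The first background was the probes named neither mouselincRNA nor humanlincRNA. The share of members detected minus theirs was -25.2 percentage points on average (SD 2.97, n = 9 arrays, range -29.9 to -22.2), lower on 9 of 9 arrays. An exact sign-flip permutation test gave p = 0.00391, the smallest that 9 arrays allow (adjusted p = 0.00781). This share counts probes, and 317 of the 332 numbers have both a plus and a minus probe. Neither probe was detected in 78 of 316 usable pairs on cancer sample 2 and in up to 207 of 316, on fetal sample 1. A share per number would be higher than one per probe, and whether it is also below the background was not tested. Against the 1104 probes whose names begin with humanlincRNA, the members were 1.35 points higher on average (SD 1.08, higher on 8 of 9 arrays, exact sign-flip permutation p = 0.0156, adjusted p = 0.0156). That small difference was 1.16 points and no longer past the threshold in the first scan alone, and it was -0.565 points with the looser mark for a signal that is positive and significant against background.

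Few members were detected on every array of some tissues and on no array of the others. The share of all probes with such a pattern was not computed, and the 305 members detected on 0 arrays could not show one. Of the 649 members, 5 were well above background on all 3 cancer arrays and on no fetal or adult array. They were mouselincRNA0413+_P1, mouselincRNA0665+_P1, mouselincRNA0776-_P1, mouselincRNA1235-_P1 and mouselincRNA1424+_P1, named because the count is small and after their values were seen. The lowest level that counted was -4.26 and -3.96 on cancer samples 2 and 3, against -3.27 to -2.09 on the other arrays. On cancer samples 2 and 3, mouselincRNA0665+_P1 counted at levels below that limit of every fetal and adult array. The pattern therefore does not by itself show a higher level in the tumours. A single probe, mouselincRNA1468-_P1, was detected on all adult and all cancer arrays and on 0 fetal arrays. Another, mouselincRNA0768-_P1, was detected on all fetal and cancer arrays and on 0 adult arrays, but its levels overlapped between the groups and it was called in no comparison. The counts were 0 for probes seen on every fetal array only, on every adult array only, or on every fetal and adult array but no cancer array.

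Levels were tested for the 175 members (27.0%) detected, that is well above background, on 3 or more arrays, which compares with 314 of 1104 humanlincRNA probes (28.4%) and 34103 of all 60915 probes (56.0%). Of the 175, 17 were above background on 0 fetal arrays, 29 on 0 adult arrays and 2 on 0 cancer arrays. A member that entered only through a group in which it was bright had to differ, so counts over the 175 are descriptions. Without the arrays of the brighter group, the members behind 8 of the calls between fetal and adult liver, 7 between cancer and adult liver and 12 between cancer and fetal liver would not have entered. For those calls named below, the difference is a description and no p is given. A probe was called in a comparison when the adjusted p from limma over all 34103 probes was below 0.05 and the log2 difference was at least 1, a 2-fold change. Replicates of a group spread more widely among members than among all tested probes. The median SD was 0.24 against 0.20 in fetal liver, 0.28 against 0.21 in adult liver and 0.53 against 0.47 in cancer.

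Fetal liver had lower levels than adult liver for most of the members that differed. Of the 175, 42 were called, 6 higher in fetal liver and 36 lower. Among all tested probes 39.6% were called, 21.2% higher and 18.4% lower, against 3.43% and 20.6% of the members. The share called lower was thus near the background, and the share called higher was below it. The humanlincRNA probes had 12 higher and 57 lower of 314, and a median difference of -0.21. The median difference was -0.30 over the members and -0.02 over all tested probes, and in 81 members (46.3%, against 66.1% of all tested probes) the arrays of both groups did not overlap. The count depended on the background correction and the offset added with it, which were not tested apart. Normexp correction of the raw median signals, with an offset of 50, left 5 calls, 2 higher and 3 lower. Such an offset shrinks changes between dim signals. With that setting 17.4% of all tested probes were called, 8.5% higher and 8.94% lower. The first scan alone, which holds every fetal and adult array, gave 45 calls, 7 higher and 38 lower, beside 22.1% and 18.9% of all tested probes.

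Cancer and adult liver differed in fewer members. Of the 175, 23 were called, 15 higher in cancer and 8 lower, which is 8.57% and 4.57% of the members. Among all tested probes 24.1% were called, 11.6% higher and 12.5% lower. The median difference was 0.00 over the members and 0.01 over all tested probes, and the groups did not overlap in 55 members (31.4%, against 42.6%). Scaling to the array median moved both medians, to -0.28 and -0.27, and turned the split to 10 higher and 16 lower (8.16% and 16.5% of all tested probes), while quantile normalization gave 15 and 13 (10.4% and 13.7%) and signals floored at the detection limit gave 11 and 12 (8.35% and 15.5% of all tested probes). On the arrays of the first scan 16 were called, 9 higher and 7 lower, where 18.2% of all tested probes were, 8.93% higher and 9.31% lower. Of the 15 higher calls 4 were also called there, and of the 8 lower calls 2 were. Leaving out single arrays moved the count, and that over all probes with it. The count was 11 without adult sample 1 (19.9% of all tested probes called), 15 without adult sample 2 (20.2%), 47 without cancer sample 1 (35.4%), 15 without cancer sample 2 (19.3%) and 13 without cancer sample 3 (19.1%).

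Between the tumours and fetal liver, higher calls in cancer outnumbered lower ones. Of the 175, 46 were called, 39 higher in cancer (22.3%) and 7 lower (4.00%). Among all tested probes 42.4% were called, 20.4% higher and 22.0% lower. The median difference was 0.42 over the members, 0.43 over the humanlincRNA probes and 0.05 over all tested probes. After normexp correction these medians were -0.12, -0.28 and -0.26. Of 314 humanlincRNA probes 67 (21.3%) were higher in cancer and 11 (3.5%) lower, so the split was not particular to the members. The arrays of the groups did not overlap in 82 members (46.9%, against 58.3% of all tested probes). Normexp correction left 20 calls, 14 higher and 6 lower, beside 30.1% of all tested probes (13.3% and 16.8%). With arrays scaled to their median 29 were higher and 12 lower (16.7% and 25.5% of all tested probes). The first scan gave 35 calls, 28 higher and 7 lower, beside 38.7% of all tested probes (18.5% and 20.1%), and 22 of the 39 and 3 of the 7 were called there too. The comparisons share their samples, so their counts are not independent of each other. Over the 3 comparisons 72 of the 175 members (41.1%) were called at least once, against 56.9% of all tested probes.

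No tested member met the oncofetal pattern, called higher than adult liver in both fetal liver and cancer. The limma count was 0 of 175, where 4.41% of all tested probes met it. At an unadjusted p below 0.05 and with no minimum change there were 4, and with at least a 2-fold change 1. The number was 1 after quantile normalization, after array median scaling, with each comparison fitted on its 2 groups alone or without cancer sample 1. It was 2 with the adjusted p alone and 0 with limma's treat test against 1.5-fold.

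The 4 members higher in both at an unadjusted p below 0.05, named after their values were seen, were mouselincRNA0161-_P1, mouselincRNA0772-_P1, mouselincRNA0933+_P1 and mouselincRNA1533-_P1. The levels of mouselincRNA0772-_P1 were 3.88, 3.87 and 3.84 in fetal liver, 3.01, 2.93 and 2.87 in adult liver and 3.68, 3.54 and 3.67 in cancer. The 3 groups did not overlap and each was tight, with adult liver lowest. Its differences from adult liver were 0.93 ± 0.17 in fetal liver (SE, limma adjusted p = 0.00135) and 0.69 ± 0.17 in cancer (adjusted p = 0.0125), both short of 2-fold. The probe mouselincRNA0161-_P1 had 4.43 and 3.70 on its 2 usable fetal arrays (the spot on fetal sample 1 was marked as an outlier and dropped), 2.35, 2.59 and 3.08 in adult liver and 3.37, 5.02 and 5.12 in cancer. All fetal and cancer values lay above all adult ones. The difference was 1.39 ± 0.54 for fetal liver (limma adjusted p = 0.0656) and 1.83 ± 0.49 for cancer (adjusted p = 0.0236). The second was 0.69 in the first scan, and its call was lost without adult sample 1 (1.67) or 2 (1.79) or cancer sample 2 (1.57) or 3 (1.52). For mouselincRNA1533-_P1 the differences were 0.67 ± 0.23 (limma adjusted p = 0.0375) and 0.84 ± 0.23 (adjusted p = 0.0239). For mouselincRNA0933+_P1 they were 1.11 ± 0.28 in fetal liver and 0.74 ± 0.28 in cancer, with no adult array well above background. That probe would not have entered without the fetal arrays, so its place among the 4 is a description and no support for the pattern.

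A stepwise order, lowest in fetal liver, intermediate in adult liver and highest in cancer, was called on both sides of adult liver in 3 members, mouselincRNA1468-_P1, mouselincRNA0453+_P1 and mouselincRNA0807-_P1. Among all tested probes 1.53% met it, against 1.71% of the members. In mouselincRNA1468-_P1 the fetal levels were -4.06, -4.22 and -4.11, the adult levels -0.37, -0.34 and -0.42, and the cancer levels 1.84, 1.72 and 1.66. Replicates were close and the groups lay far apart, but the fetal signal was not well above background on any array. Adult liver was therefore at least 5.51-fold and cancer at least 24.0-fold brighter than fetal liver, with limma adjusted p = 2.4e-07 for a fitted change of -3.75 ± 0.17 and 6.91e-08 for 5.87 ± 0.17. Such bounds set the bright group against the lowest signal of any probe that counted as well above background on the dim arrays. A spot can lie above that signal without counting, so "at least" here and below refers to that limit and is not a strict bound. Cancer exceeded adult liver by 2.12 ± 0.17 on the log2 scale (limma adjusted p = 3.42e-05), and by 2.22 in the first scan. Normexp correction gave -0.74 for fetal against adult liver, no longer called, 2.27 for cancer against fetal liver and 1.52 for cancer against adult liver.

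The probe mouselincRNA0453+_P1 was among the brightest members. Its levels were 4.32, 4.03 and 4.29 in fetal liver, 5.09, 5.55 and 5.27 in adult liver and 6.47, 6.41 and 6.39 in cancer. No 2 groups overlapped. Fetal liver was lower than adult liver by 1.09 ± 0.19 (log2, limma adjusted p = 0.00132) and cancer higher by 1.12 ± 0.19 (adjusted p = 0.00257; 1.17 in the first scan), so cancer stood 4.64-fold above fetal liver. The first call was lost without adult sample 2 (-0.97), and the second after quantile normalization (0.92) or array median scaling (0.84), which in each case took the change just under 2-fold.

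For mouselincRNA0807-_P1 the levels were 0.88, 0.54 and 0.87 in fetal liver, 1.97, 2.10 and 1.61 in adult liver and 2.86, 3.48 and 3.75 in cancer. The order was the same on every array, and cancer sample 1 was the lowest of the tumours. Fetal liver was lower than adult liver by 1.13 ± 0.27 (limma adjusted p = 0.00656; -0.89 and not called after normexp), and cancer was higher than adult liver by 1.47 ± 0.27 (adjusted p = 0.00329). The latter was 0.97 and not called in the first scan, while the change of 2.60 ± 0.27 between cancer and fetal liver was 2.10 there and called.

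The probe mouselincRNA0706+_P1, the second brightest member, followed the same order without meeting every threshold. It read 5.82, 5.52 and 5.96 in fetal liver, 7.50, 7.28 and 7.39 in adult liver and 8.43, 8.28 and 8.40 in cancer. The groups did not overlap and none of the signals was near the background. Fetal liver was 3.07-fold below adult liver (log2 -1.62 ± 0.19, limma adjusted p = 9.75e-05) and 6.07-fold below cancer (2.60 ± 0.19, adjusted p = 4.76e-06), and both calls held in every alternative tried. Cancer against adult liver was 0.98 ± 0.19 (adjusted p = 0.00448), just under 2-fold, and 1.04 and called in the first scan.

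Adult liver was the highest group for another 6 members, called lower in both fetal liver and cancer, where 5.96% of all tested probes met that pattern against 3.43% of the members. The clearest was mouselincRNA1636+_P1. Its adult levels were 1.87, 1.47 and 1.49, against -1.37, -1.47 and -1.11 in fetal liver and -1.44, -1.002 and -1.85 in cancer. Fetal liver and the tumours had similar levels, both far below every adult array. The signal was 7.60-fold lower in fetal liver (log2 -2.93 ± 0.25, limma adjusted p = 1.43e-05) and 8.22-fold lower in cancer (-3.04 ± 0.25, adjusted p = 4.67e-05). Both calls held in all 24 alternatives, with -1.57 and -2.00 after normexp correction and -3.05 for cancer in the first scan.

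The probe mouselincRNA1512+_P1 showed the pattern at a smaller size. It read -0.79, -0.78 and -0.41 in fetal liver, 0.98, 0.77 and 0.74 in adult liver and -0.14, -0.32 and -0.14 in cancer. Cancer lay between the other groups with no overlap on either side. The change was -1.49 ± 0.19 in fetal liver (limma adjusted p = 0.000171) and -1.03 ± 0.19 in cancer (adjusted p = 0.0036). The cancer call fell just under 2-fold in the first scan (-0.97), without adult sample 1 (-0.96), without cancer sample 2 (-0.97) or with the 75th percentile taken over probes detected on all arrays (-0.94), and normexp correction gave -0.76 and -0.67, neither called.

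In mouselincRNA0440-_P1 the adult levels were 0.20, -0.29 and -0.45, the fetal ones -1.21, -2.58 and -1.61 and the cancer ones -2.17, -3.53 and -1.99, of which 2 were well above background. Every adult array was above every other array. The change was -1.62 ± 0.47 in fetal liver (limma adjusted p = 0.0182, lost without fetal sample 2 at -1.23 or adult sample 1 at -1.43) and -2.38 ± 0.47 in cancer (adjusted p = 0.00501). The latter was also called in the first scan, at -1.99.

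The other 3 of the 6 depended on single arrays for their cancer calls. In mouselincRNA0361+_P1 cancer was lower than adult liver by 1.80 ± 0.55 on the log2 scale (limma adjusted p = 0.0346), a call lost without fetal sample 1 (-1.80), adult sample 1 (-1.68) or 2 (-1.56) or cancer sample 2 (-1.19) and in the first scan (-1.13). In mouselincRNA0491-_P1 the change was -2.23 ± 0.54, with 2 adult arrays and 1 cancer array above background. It was lost without adult sample 1 (-1.89) or 2 (-1.86) and in the first scan (-2.31). In mouselincRNA1049-_P1 it was -1.41 ± 0.46 (limma adjusted p = 0.0437), lost in 7 of the 9 fits that left out 1 array, with -1.06 without adult sample 1 and -0.89 without cancer sample 2. All 3 were also called lower in fetal liver, by 2.69 ± 0.55, 2.44 ± 0.54 and 1.72 ± 0.46, none of them called after normexp correction.

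Fetal liver was the highest group for 4 members, called above both adult liver and cancer, against 15.6% of all tested probes. In mouselincRNA1103-_P1 the fetal levels were 2.95, 2.62 and 2.76, the adult ones -0.23, -0.30 and -0.24 and the cancer ones -0.24, -0.54 and -2.08. Fetal and adult replicates were tight, and cancer sample 3 was lower than the other tumours. Fetal liver was 8.18-fold above adult liver (log2 3.03 ± 0.42, limma adjusted p = 0.000271) and 13.3-fold above cancer (3.73 ± 0.42 lower in cancer, adjusted p = 6.8e-05; 3.01 in the first scan, lower in cancer). Both calls held in every alternative tried.

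The probe mouselincRNA0052-_P1 read 3.51, 3.20 and 3.42 in fetal liver, 1.78, 1.74 and 0.55 in adult liver and 1.59, 0.20 and 0.46 in cancer. Adult liver and cancer overlapped, and both lay below all fetal arrays. Fetal liver was 4.05-fold higher than adult liver (log2 2.02 ± 0.43, limma adjusted p = 0.00364) and 6.16-fold higher than cancer (adjusted p = 0.000742), and these calls too held in every alternative. In mouselincRNA1400-_P1, read at -0.51, -0.78 and -0.48 in fetal liver, the changes were smaller, 1.30 ± 0.22 against adult liver (limma adjusted p = 0.000935) and -1.17 ± 0.22 for cancer against fetal liver (adjusted p = 0.00168). Normexp correction gave 0.36 and -0.83, neither called.

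The fourth, mouselincRNA0078+_P1, read 0.97, 0.72 and 1.08 in fetal liver against 0.22, 0.02 and -1.16 in adult liver and -0.10, 0.05 and -1.07 in cancer. Adult sample 3 and cancer sample 3 lay well below the rest of their groups. The fetal excess over adult liver was 1.23 ± 0.41 (limma adjusted p = 0.0335) and was lost without fetal sample 1 (1.20), 2 (1.33) or 3 (1.15) or adult sample 3 (0.80). The change of -1.29 ± 0.41 in cancer (adjusted p = 0.0254) was lost without fetal sample 1 (-1.27) or 3 (-1.22) or cancer sample 3 (-0.94) and in the first scan (-1.02).

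The other 2 calls above adult liver came close to the background. In mouselincRNA0996-_P1 (1.44 ± 0.33) and mouselincRNA0933+_P1 (1.11 ± 0.28) no adult array was well above background and 1 and 2 fetal arrays were. Neither allowed a fold above 1 against the detection limit, and with signals floored at that limit the changes were -0.53 and -0.00498, in the opposite direction. The second call was also lost without fetal sample 3 (0.92).

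Fetal liver was the lowest group for 17 members, called below both adult liver and cancer, where 11.9% of all tested probes met that pattern against 9.71% of the members. Besides the stepwise probes, the largest change was in mouselincRNA0303-_P1. Its fetal levels were -4.78, -2.72 and -4.31, of which 1 was well above background, the adult levels -0.25, -0.60 and -0.62, and the cancer levels -0.50, 2.20 and 1.25. Cancer sample 1 lay with the adult livers, and the other tumours lay above them. The change was -3.45 ± 0.69 between fetal and adult liver (limma adjusted p = 0.00274; -0.63 and not called after normexp) and 4.92 ± 0.69 between cancer and fetal liver (adjusted p = 0.000302; 3.44 in the first scan and 1.82 after normexp). Cancer did not pass the test against adult liver (1.47, adjusted p = 0.137), and that difference was -0.01 in the first scan.

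In mouselincRNA1453+_P1 the fetal levels of -3.96, -4.54 and -3.51 were not well above background on any array, and the adult levels were -0.75, -0.96 and -0.94. Cancer varied widely, with -2.67, 0.30 and -0.47. Adult liver was at least 3.89-fold brighter than fetal liver and cancer at least 3.72-fold (limma adjusted p = 0.00347 for the latter). In the first scan the last bound was 1.13-fold, and cancer sample 1 was called lower than adult liver there (-1.79) although the difference over all arrays was -0.06.

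Several other members had higher signal in adult than in fetal liver. Adult liver was at least 2.19-fold above fetal liver in mouselincRNA1279+_P1 and at least 2.23-fold in mouselincRNA0065+_P1, with 0 fetal arrays well above background in either and 1 adult array in the former. In mouselincRNA0315-_P1 the adult levels of 0.00, 0.14 and -0.01 stood above fetal levels of -1.87, -2.48 and -2.18 (-2.22 ± 0.52, limma adjusted p = 0.00626). Its cancer levels split, with -0.05 for sample 1 and -2.37 and -1.99 for the others, so that sample 1 lay with the adult livers and the others with the fetal ones. Fetal liver was lower by 2.16 ± 0.41 in mouselincRNA1035-_P1 (limma adjusted p = 0.00181, 1 fetal array well above background) and by 2.13 ± 0.35 in mouselincRNA0086-_P1 (adjusted p = 0.000835). None of these 5 was called after normexp correction, where their changes lay between -0.94 and -0.36.

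In 10 fetal and adult calls only 1 group had no array well above background, and 5 of these had a bound of at least 2-fold. The corresponding numbers were 1 of 7 between cancer and adult liver and 6 of 9 between cancer and fetal liver. In 1 more call between fetal and adult liver, neither group had an array well above background.

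Cancer was the highest group for 11 members, called above both adult and fetal liver, beside 5.81% of all tested probes (6.29% of the members). The first scan gave 8 such members, beside 4.60%. The largest fitted change against adult liver was in mouselincRNA1040+_P1. Its levels were -3.44, -4.63 and -4.89 in fetal liver, -2.71, -3.56 and -1.80 in adult liver and -1.63, 2.53 and 2.90 in cancer. Cancer sample 1 sat just above the adult livers, and the tumours of the second scan were far brighter. Cancer was at least 17.3-fold above fetal liver, where no array was well above background, and at least 2.31-fold in the first scan. The probe would not have entered without the cancer arrays, so these folds are descriptions. Against adult liver (1 array well above background) the change was 3.96 ± 1.08, 1.06 and not called in the first scan, and lost without adult sample 1 (3.95) or 2 (3.52) or cancer sample 2 (3.32) or 3 (3.14).

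In mouselincRNA1235-_P1 all 3 tumours were close, at -1.07, -1.63 and -1.82, and no adult or fetal array was well above background. The adult levels were -4.27, -4.36 and -3.89 and the fetal ones -2.95, -4.24 and -3.94. Cancer was at least 1.63-fold above adult liver and at least 2.52-fold above fetal liver, or 2.21-fold and 3.40-fold in the first scan. Normexp correction gave -0.08 and -0.09, in the opposite direction and not called.

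The probe mouselincRNA0413+_P1 was bright in 1 tumour. Its cancer levels were -0.15, -2.71 and -3.05, with -4.22, -4.54 and -4.35 in adult liver and -4.86, -4.87 and -4.92 in fetal liver. Every tumour lay above every other array, and sample 1 stood apart from samples 2 and 3. Cancer was at least 1.19-fold above adult liver and at least 1.83-fold above fetal liver, and at least 4.20-fold and 6.48-fold in the first scan. The fitted change against adult liver, 2.40 ± 0.63, was 1.49 without cancer sample 1, and lost its call without adult sample 2 (2.32) or 3 (2.41). This probe too would not have entered without the cancer arrays, so its changes are descriptions. Normexp correction gave -0.26 and -0.28 in the opposite direction.

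In another 3 members the excess of cancer over adult liver lay close to the background. Cancer was at least 1.68-fold above adult liver in mouselincRNA0773-_P1, at least 1.48-fold in mouselincRNA1181+_P1 and at least 1.12-fold in mouselincRNA0009-_P1. None had an adult array well above background. None of the 3 was called in the first scan, and normexp correction gave -0.06, -0.15 and -0.30. The first was lost without adult sample 3 (1.25) or cancer sample 2 (1.37) or 3 (1.39), the next without adult sample 1 (1.14) or 2 (1.37) or cancer sample 3 (1.36), and the last without adult sample 1 (1.29) or 3 (1.30) or cancer sample 2 (1.30) or 3 (1.25). In mouselincRNA1065-_P1 the tumours read -0.77, -0.58 and -0.44 and lay above all other arrays. Cancer was higher by 1.40 ± 0.29 than adult liver (limma adjusted p = 0.00699) and by 1.35 ± 0.29 than fetal liver (adjusted p = 0.00417). With the same sign, the first scan gave 1.23 and 1.18 and normexp correction 0.23 and 0.29, none of them called.

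Few members were called lower in cancer than in adult liver. The largest such fitted change after mouselincRNA1636+_P1 was in mouselincRNA0086+_P1, which read -2.85, -4.55 and -6.29 in cancer, with no array well above background. Fetal liver read -1.32, -2.04 and -2.01 and adult liver -1.08, -2.04 and -2.46, so these groups overlapped and lay above the tumours. Adult liver was at least 3.24-fold (limma adjusted p = 0.0243) and fetal liver at least 3.39-fold above cancer, and at least 1.50-fold and 1.57-fold in the first scan, where neither was called. The fitted change against adult liver, -2.70, lost its call without adult sample 1 (-2.31) or 2 (-2.79) or cancer sample 2 (-2.71) or 3 (-1.84).

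In mouselincRNA0917+_P1 fetal liver was at least 3.50-fold above cancer, with 0 cancer arrays well above background and a bound of 1.62-fold in the first scan. That call was lost without any 1 of the fetal arrays or cancer sample 2 or 3, at fitted changes between -2.70 and -2.00. In mouselincRNA1147+_P1 cancer was lower than adult liver by 1.11 ± 0.29 in the fit (limma adjusted p = 0.0181), but no adult array was well above background, so no fold is given. The fitted change was -0.75 and not called in the first scan, and was lost without adult sample 1 (-1.06) or 2 (-1.12) or cancer sample 3 (-0.78).

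Probes of the same number and opposite sign were mostly not bright together, but on each array most members were not detected at all. The share for unrelated probes was not computed, so the shares below describe detection and no relation within a pair. On an array of the first scan, both probes of a pair were well above background in 3.79% to 7.57% of pairs and 1 of them alone in 30.1% to 37.9%. On the 2 arrays of the second scan the shares were 21.5% and 17.7% for both and 53.8% and 51.7% for 1. Both probes were tested for 24 numbers, the plus probe alone for 55, the minus probe alone for 71 and neither for 167. Over the 24 pairs the changes of the 2 probes had a Pearson correlation of 0.09 for fetal against adult liver, -0.04 for cancer against adult liver and -0.10 for cancer against fetal liver, and shared their sign in 12, 14 and 12 pairs. These are descriptions over pairs that share the same arrays.

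Both probes of a pair were called in the same direction for 2 pairs between fetal and adult liver, 0 between cancer and adult liver and 2 between cancer and fetal liver. In the first comparison mouselincRNA0797+_P1 was lower in fetal liver by 1.74 ± 0.22 and mouselincRNA0797-_P1 by 1.71 ± 0.20 (limma adjusted p = 0.000166 and 0.000103). The plus probe read -1.66, -2.14 and -2.06 in fetal liver and -0.37, 0.01 and -0.27 in adult liver, the minus probe -0.79, -0.97 and -0.69 and 1.17, 0.70 and 0.81. They parted in cancer, where the plus probe stayed near the adult levels at -0.26, -0.10 and 0.21 and the minus probe, at 0.01, -0.20 and 0.10, lay between the groups. The cancer and fetal difference was 1.90 ± 0.22 for the plus probe (adjusted p = 9.1e-05) and 0.79 for the minus probe (adjusted p = 0.00954), under 2-fold.

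The other such pair was mouselincRNA0453+_P1, described above, and mouselincRNA0453-_P1, which was lower in fetal liver than in adult liver by 1.096 ± 0.21 (limma adjusted p = 0.0022, lost without fetal sample 1 at -0.96 and after normexp at -0.34). The minus probe read -1.98, -1.47 and -1.68 in fetal liver, -0.69, -0.51 and -0.65 in adult liver and -0.70, -1.13 and -0.73 in cancer. Unlike the plus probe it was not called higher in cancer than in adult liver (-0.24).

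Between cancer and fetal liver, mouselincRNA0303+_P1 was higher in cancer by 1.04 ± 0.35 (limma adjusted p = 0.0327) beside its partner mouselincRNA0303-_P1, and mouselincRNA0776+_P1 by 1.61 ± 0.54 beside mouselincRNA0776-_P1. Within the first scan both plus probes were closer to fetal liver, at 0.30 and 0.26, and not called. The former was also lost without fetal sample 1 (0.87) or 3 (1.07) or cancer sample 2 (0.95) or 3 (0.76), the latter without any 1 of the fetal arrays or cancer sample 2 or 3, at 1.24 to 1.73. For mouselincRNA0776-_P1 cancer was at least 1.36-fold above fetal liver and at least 1.67-fold in the first scan, with levels of -2.10, -2.02 and -3.09 in cancer. Normexp correction gave -0.42 for it, in the opposite direction.

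The probes of 2 further pairs were called in opposite directions between cancer and fetal liver. In the first, mouselincRNA0086-_P1 was higher in cancer by 1.89 ± 0.35 (limma adjusted p = 0.00158; 1.02 in the first scan and 0.88, not called, after normexp), with fetal levels of -1.45, -1.74 and -1.75 and cancer levels of -0.63, 0.60 and 0.77, while mouselincRNA0086+_P1 was lower, as given above. In the second, mouselincRNA1377+_P1 was higher by 1.13 ± 0.27 (limma adjusted p = 0.00682) and mouselincRNA1377-_P1 lower by 1.25 ± 0.35 (adjusted p = 0.015). The plus probe read -1.81, -1.04 and -1.33 in fetal liver and -0.73, -0.07 and 0.02 in cancer, the minus probe -0.67, -0.79 and -0.26 and -1.28, -1.53 and -2.65. Neither overlapped between the groups. The changes were 0.66 and -0.71 in the first scan, neither called, and leaving out fetal sample 1 (0.92) or cancer sample 3 (0.99) ended the first and fetal sample 3 (-1.09) or cancer sample 3 (-0.83) the second. For 3 probes with large changes the partner was tested and not called: the changes between cancer and fetal liver were -0.26 in mouselincRNA1040-_P1, -0.87 in mouselincRNA1235+_P1 and -0.91 in mouselincRNA0706-_P1.

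The 10 members with the highest mean level included probes called in no comparison and probes that changed, such as mouselincRNA0706+_P1 above. Probes differ in brightness for the same amount of RNA, so this ranking orders signals and not transcripts. The 10 were mouselincRNA1188-_P1, mouselincRNA0706+_P1, mouselincRNA0158-_P1, mouselincRNA1606-_P1, mouselincRNA0453+_P1, mouselincRNA0305-_P1, mouselincRNA0970-_P1, mouselincRNA0499+_P1, mouselincRNA1437+_P1 and mouselincRNA1267-_P1, and 3 of the 10 were called in a comparison. Of the 175 tested members 41.1% were called at least once, and of all tested probes 56.9%. The brightest, mouselincRNA1188-_P1, read 6.76, 7.46 and 7.59 in fetal liver, 6.89, 7.74 and 7.82 in adult liver and 7.44 and 7.53 on its 2 usable cancer arrays, the third being dropped as an outlier spot. The groups overlapped throughout. The fitted differences of that probe were -0.21 ± 0.33 between fetal and adult liver and 0.00 ± 0.37 between cancer and adult liver.

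Among the bright members, mouselincRNA0158-_P1 read 6.15, 6.43 and 6.99 in fetal liver, 6.42, 6.67 and 6.59 in adult liver and 7.12, 6.90 and 7.11 in cancer and passed no test. In mouselincRNA1606-_P1 cancer was higher than fetal liver by 1.02 ± 0.28 (limma adjusted p = 0.0123), with 5.85, 6.62 and 6.85 against 5.58, 5.26 and 5.41. The call did not hold in the first scan (0.43), after quantile normalization (0.75) or array median scaling (0.80), or without fetal sample 2 (0.94) or cancer sample 2 (0.93) or 3 (0.82). The 3 groups of mouselincRNA0305-_P1 lay between 5.09 and 5.42 on 8 arrays, and cancer sample 2 read 3.52. Likewise mouselincRNA0499+_P1 read 5.18, 4.63 and 2.96 in cancer, with sample 3 apart, and neither probe was called.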

How the data were processed

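RNA of 9 liver samples, 3 per group, was read on 1 single-colour array each. The intensity values, as deposited, are background-subtracted signals of Agilent Feature Extraction 11.0.1.1, per the file headers. The deposited marks for signal above background and for outlier spots, taken as written per the file headers, were used as they stand. Outlier spots (0.129% to 1.30% per array) were left out, 0 spots were saturated, and 1439 control spots and 15 negative control probes (300 spots) were set aside.

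Signals were taken as log2, averaged per probe and scaled to the 75th percentile of each array. Probes well above background on at least 3 of 9 arrays with at least 2 usable arrays per group were fitted with limma 3.58.1 (R 4.3.3), with 1 mean per group over all 9 arrays and Benjamini-Hochberg adjustment over 34103 probes. A call needed an adjusted p below 0.05 and a log2 change of at least 1. The fit was tested on simulated data. Errors of changes are standard errors from limma. Where a group had no array well above background, a fold is the bright group's mean against a limit on the dim arrays. That limit is the lowest signal of any probe well above background there, or the probe's own where higher. Precision is limited by there being 3 arrays per group.

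Named in each comparison were the 10 members with the largest change each way among those called with no overlap of the groups, every member called lower or higher in both fetal liver and cancer than in adult liver, the 10 brightest members and pairs with both probes called. The members and lists were chosen with earlier results of these data known. Alternatives were other scalings, filters, background corrections, tests and blocks, and leaving out each array. Normexp was run on median signals, since mean signals were not used here, and an offset of 50 was added to each corrected signal. The 75th percentile of the processed signal was 87.8 to 188 on arrays of the first scan. It was 409 and 355 on those of the second, so the offset was not the same share of it on every array. No gene names, positions or sequences of the probes were used here, and probes with names of other kinds entered only as background.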

Additional observations from a re-analysis of the deposited data

Results flagged for a closer look

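In 3 members fetal liver and cancer differed from adult liver in opposite directions on every array. The difference between cancer and fetal liver follows from those differences in the same fit, so its passing limma's test adds no support. That difference was 5.87 on the log2 scale in mouselincRNA1468-_P1, 2.60 in mouselincRNA0807-_P1 and 2.21 in mouselincRNA0453+_P1, with cancer higher in each. Both groups are set against the same adult livers. Of all tested probes, 1.53% were called lower in fetal liver and higher in cancer than in adult liver. In the first scan mouselincRNA1468-_P1 and mouselincRNA0453+_P1 were called so again, and mouselincRNA0807-_P1 was not, at 0.97 between cancer and adult liver.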

How the results depend on the processing

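The number of arrays and the signal over background limit these results, and only 175 of 649 members were bright enough to test. Between fetal and adult liver the count of 42 calls was 5 with normexp correction, 24 among the 94 members above background on all 9 arrays and 27 with treat at 1.5-fold (17.4%, 36.0% and 30.8% of all probes tested there), and 36 to 44 with 1 array left out. The count of 23 between cancer and adult liver was 11, 14 and 5 with the filter on all 9 arrays, scan as a block and treat (22.9%, 18.3% and 12.8% of all probes), and 11 to 47 with 1 array left out. The count of 46 between cancer and fetal liver was 20, 22 and 29 with normexp, the filter on all 9 arrays and treat (30.1%, 39.3% and 32.7% of all probes), 87 of 649 with no filter (29.1%), and 34 to 67 with 1 array left out. In the same order, 37.0% to 41.0%, 19.1% to 35.4% and 38.9% to 48.1% of all probes were called with 1 array left out. The count of 0 for the oncofetal pattern was 1 with quantile normalization, array median scaling or 2 groups only, 2 with the adjusted p alone and 0 to 1 with 1 array left out. Detection in cancer minus adult liver was 0.474 points and minus fetal liver -1.27 points in the first scan. Members minus humanlincRNA probes was 1.16 points in the first scan and -0.565 with the looser mark.

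Of 74 results for 50 named probes, 10 kept their direction and call under all 24 alternatives, 4 under every one that gave a value, and 13 reversed under 1. The filter on all 9 arrays gave a value for 31. With normexp, cancer minus adult liver was -0.30 in mouselincRNA0009-_P1, -0.26 in mouselincRNA0413+_P1, -0.0571 in mouselincRNA0773-_P1, -0.15 in mouselincRNA1181+_P1 and -0.0760 in mouselincRNA1235-_P1. Cancer minus fetal liver was -0.28 in mouselincRNA0413+_P1, -0.0166 in mouselincRNA0773-_P1, -0.42 in mouselincRNA0776-_P1, -0.12 in mouselincRNA1035-_P1, -0.22 in mouselincRNA1181+_P1 and -0.0887 in mouselincRNA1235-_P1. With signals floored, fetal minus adult liver was -0.00498 in mouselincRNA0933+_P1 and -0.53 in mouselincRNA0996-_P1. The cause was not tested. Calls were lost for 25 of the 74 results in the first scan and for 25 with scan as a block.

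With the replicate number as a block the counts were 42, 29, 48 and 0, and none of the 74 results lost its call. Of all tested probes 39.8%, 24.7% and 43.0% were called there in the same order of comparisons. Same-numbered samples correlated between -0.16 and 0.31 in their deviations from the group means, and 7 of 18 checks had a sample closest to its own number, so the numbers were not taken as pairs.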

Other observations

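A few members, picked after their values were seen, were bright in cancer sample 1 and much dimmer in the other tumours. In mouselincRNA0665+_P1 the tumours read 0.54, -3.89 and -3.56, in mouselincRNA1424+_P1 0.68, -2.31 and -3.32 and in mouselincRNA0013-_P1 3.73, 1.00 and 1.32. The first and second had no fetal or adult array well above background. In the first scan, with that tumour as the only one, cancer was at least 6.77-fold above adult liver in mouselincRNA0665+_P1 and at least 6.75-fold in mouselincRNA1424+_P1 as a description with no test, and over all arrays neither was called. The spread among tumours is therefore given per sample, and whether it belongs to the tumour or to the scan cannot be told apart.

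Members with consecutive numbers and the same sign were set side by side. In 10 such pairs both probes were tested, and in 2 both were called lower in fetal than in adult liver. They were mouselincRNA0361+_P1 and mouselincRNA0362+_P1 (-2.69 and -1.87) and mouselincRNA1633+_P1 and mouselincRNA1634+_P1 (-1.54 and -1.61). Over the 10 pairs 6 shared the sign of that change. Of the 175 tested members 20.6% were called lower in fetal liver, and only 53 had a difference above 0. The changes correlated at 0.28 for fetal against adult liver, 0.15 for cancer against adult liver and -0.60 for cancer against fetal liver. Shares for unrelated probes were not computed, so these values describe the pairs and show no relation between neighbours.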
